A study of Mus musculus with 12 samples.

Results

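The comparison was between BV2 cells cultured with neutrophils under stimulation by phorbol myristate acetate (PMA), labelled Neu+NETS, and BV2 cells cultured with unstimulated neutrophils, labelled Neu. Its members were the 4 libraries of each label, 8 of the 12 in the series, taken by title, with 16387 of 27487 listed genes passing a filter on low counts. BV2 is an immortalised line of mouse microglia, the macrophages of brain and retina, and the neutrophils were primary mouse cells. The other 4 libraries, labelled CTR, held BV2 cells alone and serve here as the background level. The labels give retina as the tissue and BV2 as the cell line of every library. The sources used here do not say whether neutrophils were taken away before RNA was extracted or PMA washed out before the cultures were joined. Any traps, the stimulated neutrophils and any PMA carried over reached the same 4 libraries, so their contributions cannot be told apart. That traps were present rests on the label, and the data used here do not measure them.

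PMA stands in for diacylglycerol, the lipid second messenger that switches on protein kinase C. In neutrophils it sets off the NADPH oxidase and NETosis, in which decondensed chromatin studded with granule proteases and histones is cast out of the cell as a neutrophil extracellular trap (NET). Macrophages and microglia meet such traps through receptors for DNA, histones and complement and through phagocytosis. Their own state is set by lineage factors such as PU.1, by CSF1 receptor signalling, and by inducible programmes driven by NF-kappaB, hypoxia-inducible factor (HIF), interferons and the stress factor ATF4.

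Polyadenylated RNA was counted at 57577108 to 68316549 estimated counts in each of the 8 libraries. The first principal component of these 8 libraries carried 60.7% of the variance and put the Neu libraries at -63.7 to -62.8 and the Neu+NETS libraries at 61.7 to 65.6. The second, with 8.59%, lay within the Neu+NETS group, where replicate 4 lay at the end opposite to replicate 2 (at -34.1). Neu replicate 4 differed more from the other Neu libraries (chi-square per degree of freedom 4.16 to 4.47) than these did among themselves (1.87 to 2.10). The chi-square was computed on counts divided by 4, a scaling that the files do not state and on which its size depends. No label ties the replicates to separate cultures, and p-values therefore rest on library-to-library spread that may be technical.

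Promoter sequence is shown first for genes of groups that moved together, as a view of the letters upstream of their starts. The windows below come from RefSeq promoters of build GRCm38.p6 and run 5′ to 3′ on the gene's strand, with matches to the motif named for each window in capitals, on either strand, and other letters in lower case even where another searched motif is present. The first 3 genes belong to the hypoxia response, and their capitals mark ACGTG or GCGTG, the core of the element that HIF binds. Ero1a (chr14:45318626-45318705, minus strand) encodes an oxidase of disulfide formation, Bnip3 (chr7:138909575-138909624, minus strand) a mitophagy receptor and Egln1 (chr8:124949312-124949391, minus strand) the oxygen sensor PHD2.
Ero1a: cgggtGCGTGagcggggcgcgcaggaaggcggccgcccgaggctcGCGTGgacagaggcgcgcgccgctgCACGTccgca
Bnip3: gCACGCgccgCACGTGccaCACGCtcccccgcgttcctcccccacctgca
Egln1: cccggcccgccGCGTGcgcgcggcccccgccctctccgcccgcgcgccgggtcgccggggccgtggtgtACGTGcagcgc
In the 250 bases before the start, ACGTG was present in 14 of 21 genes of the hypoxia list with a promoter entry. It was present in 16.6% of all 32851 promoters and in 25.04% of the 10359 tested genes with an entry. GCGTG was present in 16 of the 21, against 28.2% of all promoters and 48.7% of tested genes.

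A second pair belongs to DNA replication, with capitals at TTTCCCGC or TTTGGCGC, sites of the E2F factors that drive entry into S phase. Cdc6 (chr11:98907988-98908037, plus strand) loads the replicative helicase and Mcm6 (chr1:128359745-128359824, minus strand) is a subunit of it.
Cdc6: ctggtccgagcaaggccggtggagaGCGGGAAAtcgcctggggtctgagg
Mcm6: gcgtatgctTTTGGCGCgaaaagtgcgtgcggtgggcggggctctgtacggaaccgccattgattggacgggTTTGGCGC
TTTCCCGC was found in 2 and TTTGGCGC in 3 of 25 replication genes with an entry, against 0.895% and 0.417% of all promoters and 1.94% and 0.927% of tested genes. Another kind of window is shown for genes of the macrophage programme. Isg15 (chr4:156200866-156200915, minus strand), a ubiquitin-like interferon product, and Cybb (chrX:9469422-9469491, minus strand), the catalytic subunit of the NADPH oxidase, have GAAANNGAA in capitals, the interferon-stimulated response element.
Isg15: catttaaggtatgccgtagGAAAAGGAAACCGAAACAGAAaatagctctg
Cybb: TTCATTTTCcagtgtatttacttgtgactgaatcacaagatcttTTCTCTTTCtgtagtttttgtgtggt
Matches of GAAANNGAA can overlap one another, as in Isg15. The element was present in 18 of 30 interferon-stimulated genes and in 2 of 4 oxidase genes with an entry, against 7.13% of all promoters and 7.42% of tested genes. Ctsd (chr7:142387902-142387951, minus strand), the lysosomal protease cathepsin D, carries TCACGTGA, the element of the lysosomal factors TFEB and TFE3, which holds ACGTG within it. Acod1 (chr14:103046902-103046951, plus strand), which makes itaconate, carries GGANTTTCC, an NF-kappaB site.
Ctsd: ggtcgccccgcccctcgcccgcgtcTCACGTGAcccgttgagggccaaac
Acod1: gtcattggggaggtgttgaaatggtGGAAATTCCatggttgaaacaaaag
TCACGTGA was present in 5 of 26 lysosomal genes, against 0.785% of all promoters and 1.75% of tested genes. GGANTTTCC was present in 3 of 10 inflammatory and 4 of 15 NF-kappaB pathway genes, against 1.07% and 1.41%. An ATF4 and C/EBP composite (TGATGNAAT) was found in 1 of 22 genes of amino acid supply, against 0.816% of all promoters and 0.531% of tested genes. A PU.1 site (GAGGAAGT) was found in 0 of 10 homeostatic genes and 1 of 17 phagocytic receptor genes, against 2.44% and 3.20%. An AP-1 site (TGANTCA) was found in 0 of 18 immediate early genes and 8 of 30 interferon-stimulated genes, against 6.75% and 5.70%. Lacking a match means only that these letters are not in this window. A match is a description of the letters and was tied to no binding measurement.

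The transcriptomes of the co-cultures differed over most tested genes. At an adjusted p under 0.05 (edgeR's quasi-likelihood test), 10241 genes were called, 62.5% of those tested. Of these, 4819 were higher in Neu+NETS (29.4% of tested genes) and 5422 lower (33.1%). Large differences lay mostly on the lower side. A difference of at least 1 on the log2 scale, which is 2-fold, was reached by 767 genes called higher (4.68%) and by 2085 called lower (12.7%). With limma on log2(FPKM + 1), which shrinks differences of low genes, these were 473 and 575. Genes called higher had a median size of 0.53 on the log2 scale and genes called lower one of 0.74. Past 3 on the log2 scale there were 20 genes called higher, none of which reached 5 FPKM in the higher group, and 343 called lower, of which 36 reached 5 FPKM. FPKM counts fragments relative to transcript length and library size. Near 0 these fitted sizes are not bounds: in 217 of the 343 every Neu+NETS library had 12 or fewer counts, the floor assumed here (about 3 fragments if 1 fragment is worth 4 count units, which the files do not state). For 9763 genes no FPKM value of one group lay within the range of the other, 59.6% of those tested.

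Called genes split into 47.1% higher and 52.9% lower by edgeR, while limma on log2(FPKM + 1) called 8922 of 11626 genes, 59.9% of them higher. The median difference over all tested genes was -0.05 with edgeR and 0.10 with limma, so small differences are best read against these medians. Without Neu replicate 4 the calls were 4764 higher and 5283 lower, and without Neu+NETS replicate 4 they were 4685 and 5252.

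**Figure D1:**
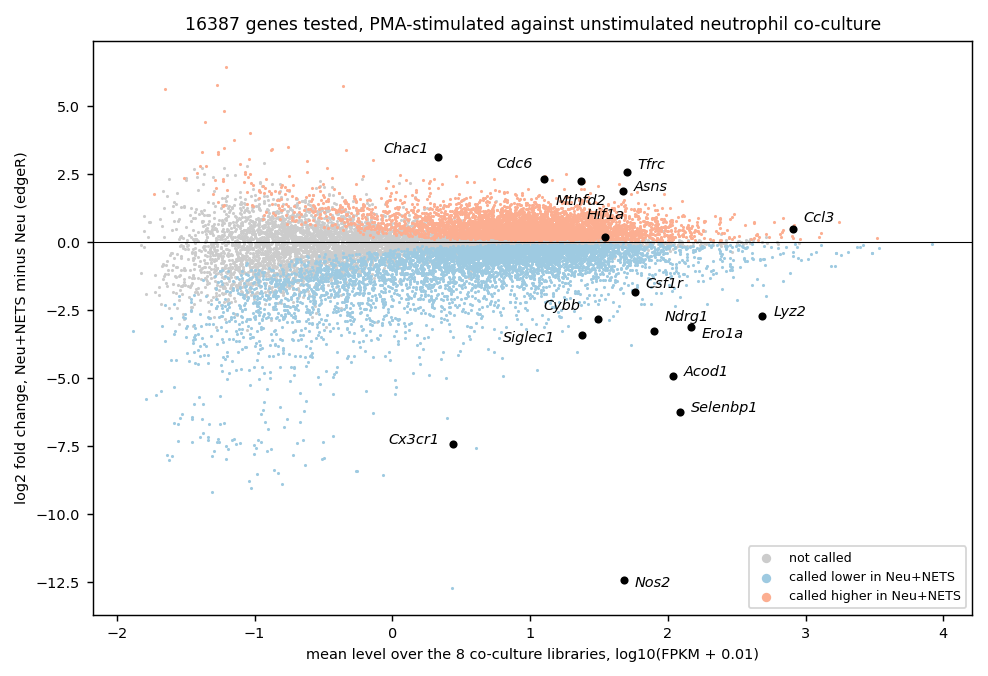
Each of the 16387 tested genes by its mean level over the 8 co-culture libraries (horizontal, log10 of FPKM + 0.01) and its fitted log2 fold change, Neu+NETS minus Neu (vertical). Points are coloured by call at an adjusted p under 0.05, named genes are black, and the points past -5 include genes near 0 counts in Neu+NETS, such as Nos2 and Cx3cr1, whose fitted size is not a bound.

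Markers of other cells were checked because neutrophil RNA could be present. Of 20 mature neutrophil markers 13 were in the table, and their summed level was 45.4 to 46.2 FPKM in Neu, 6.25 to 6.92 in Neu+NETS and 22.7 to 22.9 in CTR. The calprotectin gene S100a8, a defining marker, was under 1 FPKM in all of these libraries, as were Mpo and Elane of neutrophil precursors. Much of the sum came from genes that the CTR libraries held as well: Trem1 was at 13.99 ± 0.410, 2.10 ± 0.160 and 8.83 ± 0.300 FPKM in Neu, Neu+NETS and CTR, and Cxcr4 at 9.49 ± 0.416, 1.94 ± 0.127 and 5.71 ± 0.501. Il1r2, the decoy receptor of interleukin 1, was at 8.28, 8.16, 7.59 and 8.09 FPKM in Neu, had 9 counts or fewer in each Neu+NETS library and averaged 0.320 FPKM in CTR. Other markers were likewise higher in every Neu library than in any CTR or Neu+NETS library. Mxd1 averaged 6.998, 1.23 and 1.06 FPKM in Neu, Neu+NETS and CTR, Mmp9 1.46, 0.215 and 0.548, Lcn2, of secondary granules, 0.950, 0.0908 and 0.223, and Prtn3, the protease of primary granules, 0.399, 0.0462 and 0.0645. The sum of neutrophil precursor markers, mostly Cebpe, was 19.6 to 23.1 FPKM in Neu, 7.16 to 9.29 in Neu+NETS and 15.6 to 18.2 in CTR. These sums moved in the same direction as the lists of lower genes described next, and their part in those results was not tested.

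The retinal list, checked because the labels name that tissue, summed to 20.9 to 22.4 FPKM in Neu and 23.004 to 25.6 in Neu+NETS, nearly all of it Glul, glutamine synthetase, which many cell types express. Among the 9 of its genes that were measured, 7 were under 1 FPKM in all 8 libraries. Monocyte markers summed to 4.45 to 5.39 and 3.74 to 4.13 FPKM, and the sums for lymphocytes, for mast cells with basophils and eosinophils, and for endothelial cells and fibroblasts were under 1 FPKM in both groups. Erythroid markers summed to 1.08 to 1.65 FPKM in Neu and 0.728 to 1.00 in Neu+NETS. The defining markers of microglia that the line has at low levels were Tmem119 and P2ry12, the latter at 0.282 and 0.0199 FPKM.

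Lists of gene function, 37 in all, were laid over this background. In 25 of them over 50% of the tested members were called lower and in 7 over 50% were called higher. Every count of called members below stands against 29.4% of all tested genes called higher and 33.1% called lower. By edgeR the lowest list medians belonged to inflammatory enzymes and cytokines (-2.70), hypoxia response outside glycolysis (-1.60), complement (-1.49) and homeostatic microglia genes (-1.41). The highest belonged to replication licensing and DNA synthesis (1.19), ribosome biogenesis and RNA polymerase I (0.97) and integrated stress response and amino acid supply (0.74). Several of these medians depended on the setting. Over the 20 alternative settings the inflammatory median ran from -2.83 to -0.30, complement from -1.64 to -0.22, hypoxia from -1.65 to -0.99 and homeostatic genes from -1.45 to -0.80, each weakest with limma on FPKM, so their order at the low end is not fixed. The replication median ran from 1.15 to 1.29, ribosome biogenesis from 0.93 to 1.07 and the stress response from 0.70 to 0.84. Lists share some members, and a list median carries no test here.

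**Figure D2:**
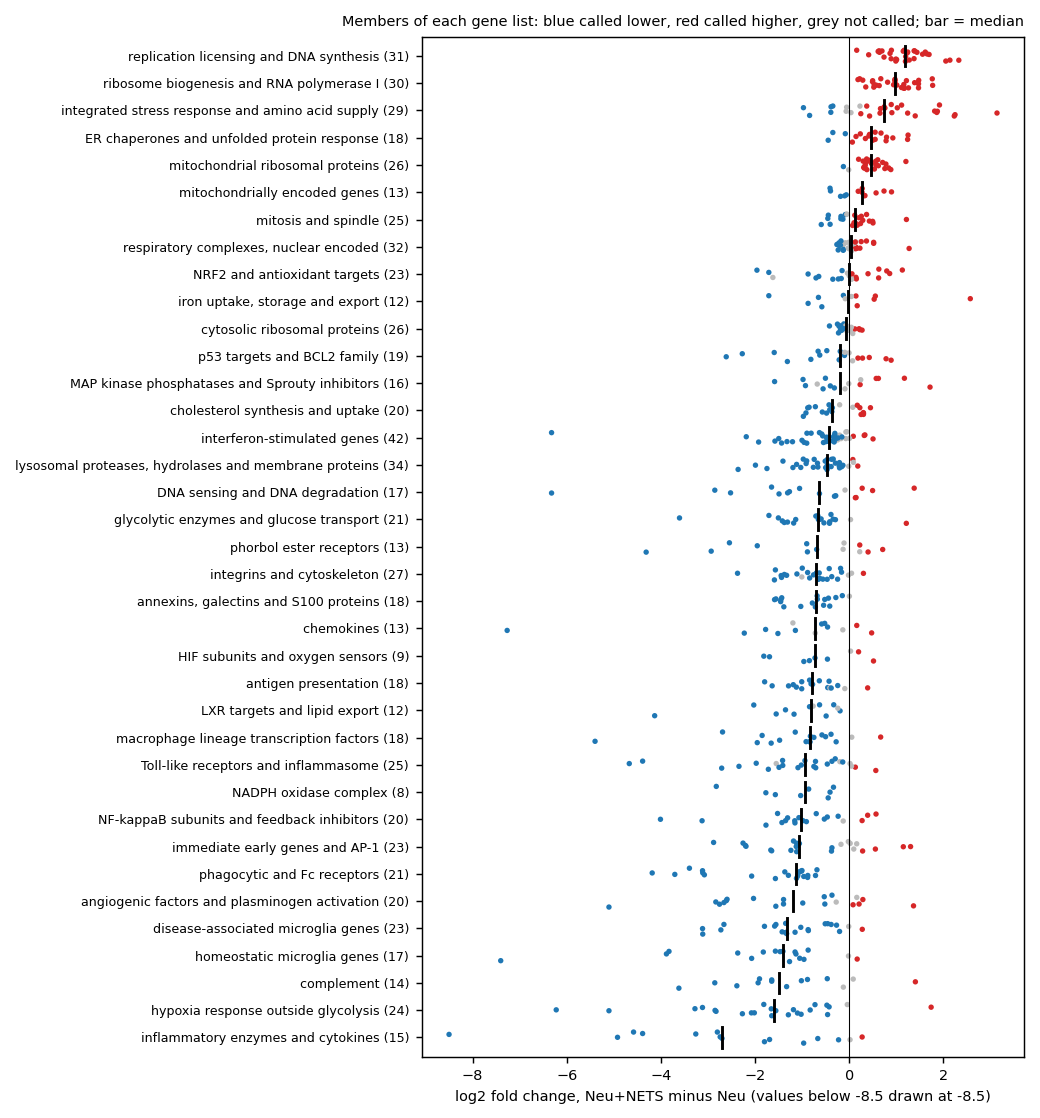
Log2 fold change (Neu+NETS minus Neu, edgeR) of every tested member of the 37 lists, ordered by list median (black bar), with the number of tested members in brackets. Blue members were called lower, red higher, grey not called, and the order runs from inflammatory enzymes and cytokines (median -2.70) to replication licensing and DNA synthesis (median 1.19).

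Enzymes of nitric oxide, itaconate and prostaglandin synthesis were far lower in Neu+NETS. Nos2, the inducible nitric oxide synthase, was at 92.3, 94.3, 90.9 and 105 FPKM in Neu libraries 1 to 4 and at 0.0416, 0.0299, 0 and 0 in the Neu+NETS libraries. The latter correspond to 13, 9, 0 and 0 counts, at or about the floor of 12, and no fold is given. Its 4 CTR libraries had 30 to 73 counts, so the high level was measured in the Neu group (edgeR, adjusted p = 7.53e-18).

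Acod1, the aconitate decarboxylase that makes itaconate, was at 199, 208, 206 and 224 FPKM in Neu and at 7.99, 7.49, 7.48 and 6.69 in Neu+NETS. The groups were far apart, with a log2 difference of -4.92 ± 0.05 (SE; edgeR, adjusted p = 1.19e-19). With CTR at 128 ± 3.95 FPKM (SD, n = 4), Acod1 lay 0.77 above it in Neu and at -4.15 on the log2 scale in Neu+NETS. Ptgs2, the inducible cyclooxygenase, went the same way from 30.7 ± 0.864 to 3.44 ± 0.245 FPKM (-3.26 ± 0.05), and its CTR level of 3.14 FPKM was close to that in Neu+NETS.

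Of the 15 tested members of the inflammatory list, 13 were called lower and 1 higher, against 33.1% and 29.4% of all genes. Csf1, the ligand of the CSF1 receptor, fell from 32.1 to 9.90 FPKM on average (-1.80). Il1b, the pro-form of interleukin 1 beta, was low in both groups, at 1.04, 1.38, 0.940 and 0.387 FPKM in Neu and 0.0243, 0.129, 0 and 0.0301 in Neu+NETS. Tnf differed little, with 32.4 ± 1.29 and 29.8 ± 1.26 FPKM (-0.23 ± 0.05), a call lost with limma on log2(FPKM + 1) without a filter. The member called higher was Osm, the gp130 cytokine oncostatin M, at 15.97 and 20.8 FPKM (0.27).

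Chemokines did not move as one group: 8 of 13 were called lower and 2 higher. Ccl3, a chemokine that draws in myeloid and T cells, was at 646, 660.5, 648 and 624 FPKM in Neu and 935, 986, 999 and 937 in Neu+NETS. All 4 Neu+NETS libraries lay above all 4 Neu libraries (0.48 ± 0.04; edgeR, adjusted p = 2.52e-09), and CTR was lower than both at 252 FPKM. Its neighbour Ccl4 was at 139 ± 1.28 and 136 ± 10.9 FPKM and was not called (edgeR, adjusted p = 0.0734), though 4 of 20 alternative settings called it. Ccl2, which recruits monocytes, was at 34.4 ± 2.28 and 41.3 ± 2.29 FPKM, a call of 0.16 ± 0.06 that was lost under 10 of the 20 alternative settings, among them those without Neu replicate 1, 2 or 3 or Neu+NETS replicate 2 or 3. Ccl9 (-1.52), Ccl6 (-0.59) and Cxcl14 (-0.46) fell.

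Outside the lists, several genes of over 10 FPKM in Neu were nearly silent in Neu+NETS. Serpinb1a, an intracellular inhibitor of neutrophil serine proteases, was at 21.04, 21.4, 21.5 and 21.6 FPKM in Neu and at 0.808, 0.833, 1.04 and 0.859 in Neu+NETS (-4.69 ± 0.11; edgeR, adjusted p = 5.60e-16), with CTR at 7.75. Igsf6, a myeloid immunoglobulin-family receptor, went from 41.2 ± 1.13 to 2.68 ± 0.540 FPKM (-4.04 ± 0.09), with CTR at 22.5. The membrane scaffold gene Mpp2 (-4.91), Mamdc2 (-4.26) and Asb11 (-4.03) were also lower, at Neu+NETS means of 0.434, 0.657 and 0.671 FPKM. The rule that picked the largest changes took only genes without overlap between groups, so their lack of overlap is no separate result.

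The hypoxia response was lower in Neu+NETS almost throughout. Of 24 members outside glycolysis, 22 were called lower, with a median of -1.60 against -0.05 over all genes. The exceptions were Car12, a membrane carbonic anhydrase, which rose from 3.79 to 13.6 FPKM (1.74), and Mif, at 517 and 539.9 FPKM and not called. Under 2 of 20 alternative settings Mif was called. Against CTR, the list median was 2.00 in Neu and 0.28 in Neu+NETS, comparisons that share libraries with this one.

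Ero1a stood at 265, 264, 249.99 and 264 FPKM in Neu and at 32.6, 31.9, 32.7 and 32.02 in Neu+NETS (-3.12 ± 0.04; edgeR, adjusted p = 1.23e-18). Ndrg1, a stress-responsive gene used as a marker of hypoxia, was at 141, 140.2, 141 and 151 and 15.3, 15.9, 16.2 and 16.2 FPKM (-3.28 ± 0.03; adjusted p = 1.24e-20, edgeR). In both genes every Neu+NETS library was well below every Neu library. The CTR means were 19.6 FPKM for Ero1a and 13.1 for Ndrg1, from which Neu+NETS differed by 0.67 and 0.23 on the log2 scale. Bnip3 fell from 313 to 69.8 FPKM (-2.27), Egln1 from 87.01 to 26.6 (-1.81), and Ddit4, an inhibitor of mTORC1 also called REDD1, from 64.9 to 9.68 (-2.85). Ankrd37 (-2.83) and Hilpda, which coats lipid droplets and blocks lipolysis (-2.08), moved likewise.

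Selenbp1, a selenium-binding methanethiol oxidase, had the widest difference among the abundant members of this list. It was at 235, 235, 235 and 255 FPKM in Neu and at 3.44, 3.82, 3.24 and 3.28 in Neu+NETS (-6.22 ± 0.07; edgeR, adjusted p = 4.51e-19). Its near-identical copy Selenbp2 was at 5.82, 4.35, 5.58 and 5.82 FPKM in Neu and had 0 counts in every Neu+NETS library, at least 70.04-fold higher in Neu against the assumed floor of 12 counts in each library. Reads of the copies can be exchanged, so the split between them is uncertain. The hypoxia list was chosen with earlier results of these data known. The place of Selenbp1 in it does not show that the gene responds to hypoxia.

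Of 9 genes of HIF subunits and oxygen sensors 6 were called lower and 2 higher. Hif1a, the oxygen-labile HIF subunit, which is controlled chiefly at the protein level, was at 31.2, 31.3, 29.1 and 33.6 FPKM in Neu and 37.7, 38.8, 38.2 and 39.6 in Neu+NETS. It was thus slightly higher (0.20 ± 0.04; edgeR, adjusted p = 1.08e-04) while its target genes were lower. Its partner Arnt fell (-0.46), as did Vhl, the ubiquitin ligase adaptor that destroys HIF in oxygen (-0.85), and Hif1an, an asparaginyl hydroxylase that blocks its activity, rose (0.52). Vegfa, the main angiogenic HIF target, fell from 36.6 ± 1.32 to 13.3 ± 0.843 FPKM (-1.56 ± 0.05). Of 20 angiogenic and plasminogen-activation genes 14 were called lower (median -1.19, with -1.39 to -0.25 over the settings), and Vegfb (0.21), Hbegf, an EGF receptor ligand (1.36), and Nrp2 (0.29) were called higher. Plau, the urokinase gene, was called higher too (0.08), but not with upper quartile scaling or a minimum mean of 100 counts.

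Glycolysis followed, with smaller differences. Of 21 tested genes, 19 were called lower, 8 of them by at least 1 on the log2 scale. Slc2a1, the glucose transporter GLUT1, was at 250.3, 251, 251 and 274 FPKM in Neu and 102, 105, 99.2 and 106 in Neu+NETS (-1.42 ± 0.03). The entry enzymes Hk1 (-1.38) and Pfkp (-1.31) and the aldolase Aldoc (-1.71) fell by more than the abundant late enzymes Pgk1 (-0.62), Eno1 (-0.42), Pkm (-0.42) and Ldha (-0.34), a contrast of sizes that was not itself tested. Slc16a1, the monocarboxylate transporter MCT1, was called higher, at 32.3 ± 0.469 and 80.4 ± 1.11 FPKM (1.21 ± 0.02). Gapdh ran from 19.5 to 59.1 FPKM within Neu+NETS and has many processed copies in the mouse genome, so its value (-1.51 ± 0.30) is uncertain.

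**Figure D3:**
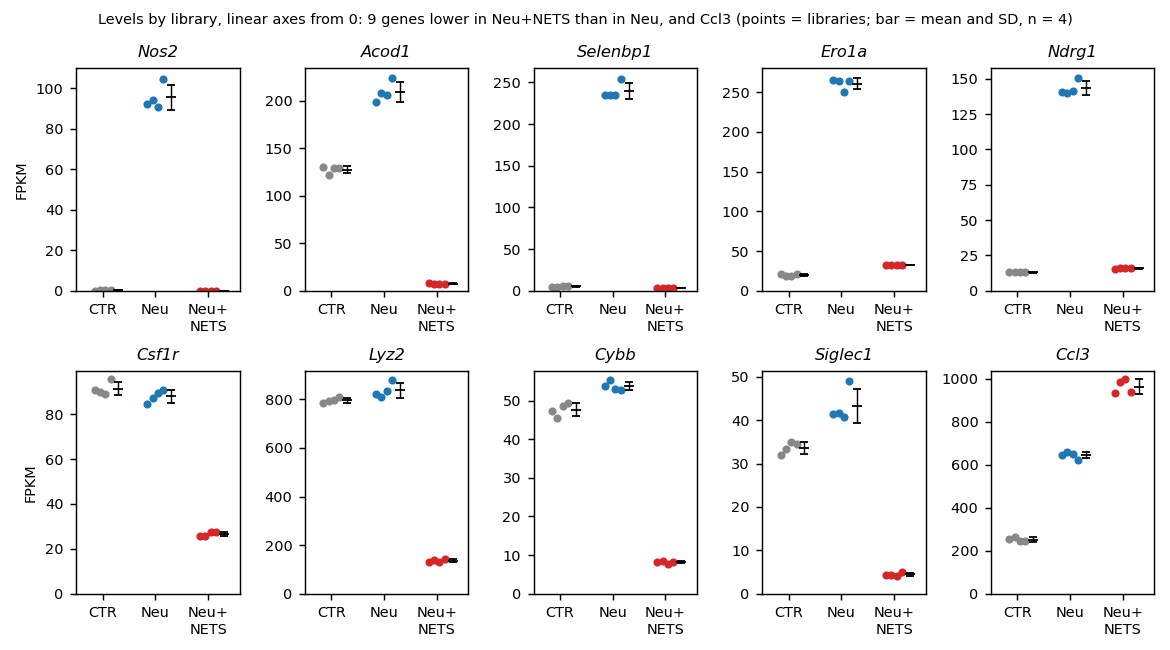
FPKM of 10 genes in the 12 libraries (points), with mean and SD of each group of 4 beside them, on linear axes from 0. In the 9 genes other than Ccl3 the Neu+NETS libraries lie below every Neu library, with Nos2 at 0.0416 FPKM or less and Acod1 at 7.99 or less, while Ccl3 is highest in Neu+NETS.

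Most genes of the NF-kappaB pathway and of the immediate early response were lower. Of 20 NF-kappaB genes 16 were called lower and 3 higher (median -1.03). Of the subunits, Nfkb1 was at -0.47 and Relb at -1.07, and Rela, at 21.7 and 21.3 FPKM, was not called, though 6 of 20 settings called it lower, among them those without Neu replicate 1 or 3. Tnfaip3, the ubiquitin-editing brake A20, was at 6.30, 6.41, 6.34 and 6.77 FPKM in Neu and 0.755, 0.844, 0.778 and 0.796 in Neu+NETS (-3.13 ± 0.08; edgeR, adjusted p = 2.33e-15). Nfkbia, the inhibitor IkB alpha (-0.91), Tnip1 (-1.16) and the kinase gene Ikbke (-1.31) fell as well.

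Among immediate early genes and AP-1 subunits 14 of 23 were called lower and 4 higher. Atf3, a stress-induced repressor of inflammatory genes, was at 50.4, 50.9, 50.04 and 52.8 FPKM in Neu and 11.8, 11.7, 10.8 and 11.7 in Neu+NETS (-2.26 ± 0.04). Jun (-1.13), Junb (-1.12), Klf6 (-1.18) and Ier3 (-1.67) fell. Fosl1, the AP-1 subunit FRA1 that follows sustained ERK signalling, went the other way, at 3.30, 4.21, 3.11 and 3.87 FPKM in Neu and 11.96, 12.2, 7.04 and 7.26 in Neu+NETS (1.302 ± 0.19; edgeR, adjusted p = 1.00e-05). Every Neu+NETS library was above every Neu library, though replicates 1 and 2 were well above replicates 3 and 4. Ier2 rose too, from 21.2 to 50.5 FPKM (1.15).

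The genes that answer to ERK and to PMA itself gave a mixed picture. Among MAP kinase phosphatases and Sprouty inhibitors 5 of 16 were called higher and 7 lower. Dusp6, an ERK phosphatase, was at 35.6 ± 2.24 and 38.05 ± 0.630 FPKM and was not called (adjusted p = 0.831). Dusp2 (1.17), Dusp7 (0.62) and Spry4 (1.72) rose, while Dusp1, which acts on p38 and JNK (-1.59), Spred3 (-0.93) and Spry2 (-0.56) fell.

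Of receptors that bind phorbol esters 7 of 13 were called lower and 3 higher, and the list median ran from -0.74 to -0.01 over the settings, so no direction is given for the list. Prkcd, the kinase isoform protein kinase C delta, was at 24.997, 24.2, 24.3 and 25.5 FPKM in Neu and 14.3, 14.6, 13.4 and 15.2 in Neu+NETS (-0.89 ± 0.03). Prkch (-0.69) and the exchange factor Rasgrp3 (-0.90) fell, and Prkca, at 1.45 ± 0.114 and 1.82 ± 0.120 FPKM, was called higher (0.22 ± 0.08), a call lost without Neu replicate 4, without Neu+NETS replicate 4 and with upper quartile scaling.

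Genes of microglial and macrophage identity formed the other large block of lower values. Of 17 homeostatic microglia genes 15 were called lower, 13 of them by at least 1 on the log2 scale, with a median of -1.41. Csf1r, the receptor on whose signal microglia depend, was at 84.4, 87.1, 89.4 and 90.8 FPKM in Neu and 25.8, 25.8, 27.7 and 27.4 in Neu+NETS (-1.83 ± 0.03; edgeR, adjusted p = 3.56e-17). CTR, at 91.3 ± 2.99 FPKM, was level with Neu. In such bulk libraries fewer cells of a type and less RNA per cell cannot be told apart.

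Cx3cr1, the fractalkine receptor, was at 5.67, 5.42, 5.26 and 5.58 FPKM in Neu and had 3 to 27 counts in the Neu+NETS libraries, near the assumed floor. CTR stood between them at 0.718 FPKM. Itgam, the alpha chain of complement receptor CR3, fell from 87.3 ± 3.06 to 31.6 ± 2.11 FPKM (-1.57 ± 0.04), and Trem2, a lipid-sensing receptor, from 29.9 to 14.5 (-1.15). The CTR mean was 61.6 FPKM for Itgam, between the groups, and 40.7 for Trem2, above both. Tgfbr1 was the member called higher, by a small amount (0.17) that was not called under 6 of 20 alternative settings, among them those without Neu replicate 3 or 4 or Neu+NETS replicate 2 or 4. Tmem119, a surface marker of microglia that is low in this line, was at 2.06 ± 0.353 and 1.01 ± 0.0703 FPKM (-1.13). Its CTR mean of 3.67 FPKM was above both.

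Lineage transcription factors were called lower in 16 of 18 cases, with a median of -0.84 (-0.89 to -0.54 over the settings). Spi1, which encodes PU.1, was at 66.2, 68.5, 72.1 and 72.5 FPKM in Neu and 52.1, 50.3, 49.2 and 49.3 in Neu+NETS (-0.58 ± 0.03; edgeR, adjusted p = 7.13e-11). The CTR mean of Spi1, 96.7 FPKM, was above both. Irf8, the partner of PU.1 on macrophage enhancers, fell from 16.4 to 5.57 FPKM (-1.66). Bhlhe40 (-1.95) and Bhlhe41 (-2.69), circadian-type repressors active in microglia, fell further. Cebpa, the myeloid factor C/EBP alpha, was the one called higher, from 4.30 to 7.34 FPKM (0.67).

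The 15 genes set aside as markers of BV2 identity were all called lower by edgeR, and their summed level was 2196 to 2300.4 FPKM in Neu, 995 to 1017 in Neu+NETS and 2124 to 2210.2 in CTR. Cd68 changed least among those named, from 378 ± 8.54 to 351 ± 7.12 FPKM (-0.21 ± 0.03). Lyz2, lysozyme M, was at 820.2, 811, 836 and 879.6 FPKM in Neu and at 129.97, 139.7, 131 and 143 in Neu+NETS (-2.73 ± 0.03; edgeR, adjusted p = 2.05e-19), with every library of the latter far below the CTR mean of 796 FPKM. Adgre1, the F4/80 antigen, fell from 69.1 to 22.9 FPKM (-1.70).

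Receptors for opsonised, dying or glycan-bearing cargo fell without exception among the 21 tested by edgeR. Siglec1, the sialoadhesin of macrophages, was at 41.5, 41.7, 40.8 and 49.1 FPKM in Neu and 4.28, 4.30, 4.18 and 4.93 in Neu+NETS (-3.39 ± 0.06), and Cd33, an inhibitory Siglec, at 33.05, 34.05, 33.1 and 32.97 and 4.22, 3.91, 4.22 and 4.61 (-3.08 ± 0.04). In neither did the groups overlap or come near each other. The Fc gamma receptors moved less: Fcgr1 -1.02, Fcgr3 -1.09, Fcgr4 -0.88, with the shared chain Fcer1g at -0.69. Clec7a, the beta-glucan receptor Dectin-1 (-3.11), and Mertk, which clears apoptotic cells (-2.07), fell by more.

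Genes known from disease-associated microglia were lower as well, 21 of 23. Gpnmb, a lysosomal glycoprotein, fell from 975 ± 25.1 to 390.3 ± 11.3 FPKM (-1.43 ± 0.02), Apoe from 625 to 263 (-1.35), Lpl from 104 to 44.03 (-1.34) and Spp1, osteopontin, from 1909 to 1125 (-0.87). In FPKM, Spp1 and Lyz2 were, after the ferritin gene Fth1, the largest drops among the named genes. Cd63 was the member called higher (0.28).

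The lysosomal list moved in the same direction with small sizes: 30 of 34 were called lower and 7 reached 1 on the log2 scale (median -0.47). Ctsk, the collagen-degrading cathepsin K, stood out at 818, 812, 820.1 and 795 FPKM in Neu and 214, 216, 226 and 221 in Neu+NETS (-1.99 ± 0.03; edgeR, adjusted p = 7.53e-18). Psap, the saposin precursor, fell from 1027 to 509 (-1.12), while Ctsd (-0.51), Ctsb (-0.38) and Lamp1 (-0.13, not called by limma) fell by less. Tfeb, the factor that binds TCACGTGA, fell from 3.91 to 1.504 FPKM (-1.48). Lipid export was lower, with Abca1, the cholesterol exporter, at 5.53, 5.33, 5.70 and 6.01 FPKM in Neu and 0.258, 0.382, 0.323 and 0.422 in Neu+NETS (-4.13 ± 0.10), Abcg1 at -1.55 and the desaturase Scd2 at -2.03. Cholesterol synthesis split, with 11 of 20 called lower, among them Sqle (-0.72) and Hmgcs1 (-0.97), and 7 higher, among them Idi1 (0.45).

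Sensors and effectors of innate immunity were mostly lower. Of 25 genes of Toll-like receptors and the inflammasome 19 were called lower and 2 higher. Tlr13, an endosomal receptor for bacterial ribosomal RNA, was at 68.5, 67.4, 68.7 and 69.1 FPKM in Neu and 10.1, 12.04, 10.8 and 12.1 in Neu+NETS (-2.71 ± 0.05). Tlr9, the receptor for CpG DNA, fell from 4.79 ± 0.559 to 1.83 ± 0.353 FPKM (-1.49 ± 0.11), Nlrp3 from 38.6 to 20.5 (-1.02) and Gsdmd, the pore-former of pyroptosis, from 37.2 to 20.8 (-0.94). Myd88, the adaptor of most of these receptors, rose (0.56).

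Cytosolic DNA sensing, a route by which trap DNA can be met, did not move as a unit. Cgas, the DNA-binding cyclase, was at 5.07, 5.68, 5.63 and 5.28 FPKM in Neu and at 13.9, 15.4, 15.7 and 15.7 in Neu+NETS, higher in every library (1.38 ± 0.05; edgeR, adjusted p = 3.37e-13). CTR was at 12.8 ± 0.394 FPKM, so the low value was that of Neu. Sting1, which cGAS activates, was at 20.2, 20.4, 20.4 and 20.5 and 19.2, 21.1, 21.02 and 21.1 FPKM with overlapping ranges and was not called (edgeR, adjusted p = 0.0820). Under 3 of 20 alternative settings Sting1 was called. The Ifi200 genes Ifi211 (-2.52) and Ifi204 (-1.65), near copies of each other and of Ifi203 (-1.06) whose reads can be shared, fell. Trex1, the main cytosolic DNA exonuclease, fell from 10.7 to 4.74 FPKM (-1.27).

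Interferon-stimulated genes were lower in 31 of 42 cases, mostly by small amounts (median -0.44, with -0.48 to -0.23 over the settings; -0.43 without Zbp1, which had no counts in Neu+NETS). Isg15 was at 74.7, 79.9, 84.02 and 78.6 FPKM in Neu and 58.6, 62.7, 61.7 and 60.4 in Neu+NETS (-0.49 ± 0.06). Irf7 (-0.46), the factor that amplifies interferon, moved by a like amount, and Slfn2 (-2.19), Stat2 (-1.498) and Dhx58 (-1.32) by more. Ifit1 (0.32) and Irgm1 (0.51) were among the 4 called higher.

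Antigen presentation (15 of 18 lower) was led by Cd74, the class II invariant chain, at 164 ± 6.77 and 50.8 ± 1.83 FPKM (-1.80 ± 0.03), and by the co-stimulatory ligand Cd86 (-1.64). Complement genes were lower in 11 of 14, with C3, the central component, at 23.8, 24.9, 25.1 and 25.3 FPKM in Neu and 4.89, 4.75, 5.07 and 5.67 in Neu+NETS (-2.39 ± 0.05) and its anaphylatoxin receptor C3ar1 at -1.91. Of the phagocyte oxidase, 8 of 8 tested genes were called lower by edgeR. Its catalytic subunit gene Cybb was at 53.9, 55.3, 53.1 and 52.8 FPKM in Neu and 8.28, 8.40, 7.72 and 8.28 in Neu+NETS (-2.82 ± 0.03; adjusted p = 5.27e-19, edgeR). The organising subunits Ncf1 (-1.57) and Ncf4 (-1.77) followed, while Cyba, the partner chain p22phox, moved little (-0.41).

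Adhesion and cytoskeletal genes (23 of 27 lower) included the intermediate filament gene Vim, from 724 ± 36.03 to 259 ± 8.70 FPKM (-1.59 ± 0.03), Flna (-1.11) and Actb (-0.56), the last often used as a reference gene. Of annexins, galectins and S100 proteins 17 of 18 were called lower, with Anxa2 from 200.2 to 71.7 FPKM (-1.59) and Lgals3, galectin-3, from 599 to 219 (-1.56). Among p53 targets and BCL2-family genes 11 of 19 were called lower and 5 higher. The survival gene Mcl1 (-1.31) and the cyclin-dependent kinase inhibitor Cdkn1a, from 109 to 24.2 FPKM (-2.27), fell, and Bid, a pro-apoptotic BH3 gene, rose (0.89), as did Aen, a p53-induced nuclease outside the list, from 1.14 to 5.77 FPKM (2.23).

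On the higher side were genes of amino acid supply. Of 29 genes of the integrated stress response 20 were called higher and 5 lower (median 0.74), with 11 of the former past 1 on the log2 scale. Asns, asparagine synthetase, was at 17.9, 20.1, 18.8 and 20.2 FPKM in Neu and 74.3, 77.2, 75.2 and 76.4 in Neu+NETS (1.87 ± 0.04; edgeR, adjusted p = 1.19e-16). Mthfd2, of mitochondrial folate metabolism, was at 7.599, 7.51, 7.58 and 7.82 and 39.7, 38.8, 38.1 and 39.3 FPKM (2.25 ± 0.03). CTR lay between the groups in both, at 37.8 and 21.2 FPKM.

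Atf4, the factor that drives this programme, rose from 51.5 ± 2.78 to 131 ± 2.88 FPKM (1.24 ± 0.03). Chac1, a glutathione-degrading ATF4 target, was low but clearly apart, at 0.352, 0.227, 0.715 and 0.317 FPKM in Neu and 3.81, 4.21, 3.86 and 3.55 in Neu+NETS (3.14 ± 0.30). The amino acid transporters Slc7a5 (1.86), Slc7a1 (1.40), Slc1a4 (2.32) and Slc6a9 (2.23) and the alanyl-tRNA synthetase gene Aars1 (1.81) rose. Other ATF4-linked genes did not follow: Slc7a11, the cystine transporter, fell (-0.35), as did Sesn2 (-0.84) and Aldh1l2 (-0.97), and Trib3, at 15.3 and 16.9 FPKM, was not called. Under 2 of 20 alternative settings Trib3 was called.

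Chaperones of the endoplasmic reticulum were higher in 15 of 18 cases (median 0.47). Hspa5, the chaperone BiP, was at 190.4, 193, 191 and 199 FPKM in Neu and 389, 404, 396 and 391 in Neu+NETS (0.93 ± 0.02). Hyou1 (1.24) and Herpud1 (1.25) rose further, whereas Xbp1 (-0.35) and Edem1 (-0.45), a factor and a target of the IRE1 arm, fell.

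**Figure D4:**
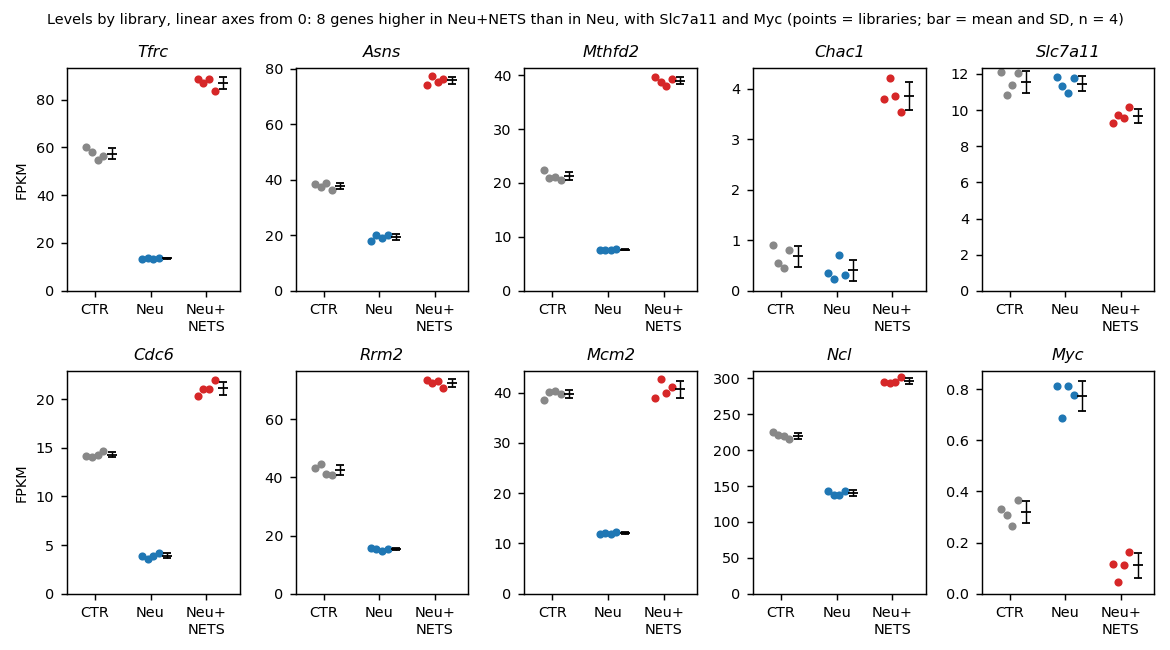
FPKM of 10 genes in the 12 libraries (points), with mean and SD of each group of 4 beside them, on linear axes from 0. Tfrc, Asns, Mthfd2, Chac1, Cdc6, Rrm2, Mcm2 and Ncl are higher in every Neu+NETS library than in every Neu library, with Tfrc at 83.6 to 88.7 against 13.2 to 13.9 FPKM, while Slc7a11 and Myc are lower.

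Replication genes were uniformly higher. By edgeR 31 of 31 were called higher, against 29.4% of all genes (median 1.19). FPKM ranges of the 2 groups did not overlap in 31, against 59.6% of all genes. Cdc6 was at 3.91, 3.58, 3.92 and 4.21 FPKM in Neu and 20.3, 21.1, 21.00 and 21.98 in Neu+NETS (2.33 ± 0.04; edgeR, adjusted p = 3.85e-17). Rrm2, the regulated subunit of ribonucleotide reductase, was at 15.6, 15.5, 14.8 and 15.3 and 73.6, 72.5, 73.02 and 70.8 FPKM (2.14 ± 0.04). For both, each Neu+NETS library exceeded the Neu libraries and the CTR mean of 14.3 and 42.6 FPKM.

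The helicase genes Mcm2 (1.65), Mcm3 (1.38) and Mcm6 (0.99), the origin gene Orc2 (2.21) and the G1/S cyclin gene Ccne1 (2.05) rose. Mcm2 was at 12.02 ± 0.223 FPKM in Neu, 40.6 ± 1.65 in Neu+NETS and 39.6 ± 0.774 in CTR, so the Neu group held the low value. Against CTR the list median was -0.92 in Neu and 0.06 in Neu+NETS. Mitotic genes had a median of 0.12 (0.07 to 0.22 over the settings), and 15 of 25 were called higher, with Mki67 at 39.3 ± 1.304 and 47.6 ± 1.77 FPKM (0.17 ± 0.03), and 8 lower, with Ccnb2, a mitotic cyclin, at -0.59.

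Ribosome synthesis was higher with the same regularity, 30 of 30 by edgeR (median 0.97). Ncl, nucleolin, was at 144, 137, 137 and 144 FPKM in Neu and 295, 294, 294 and 302 in Neu+NETS (0.97 ± 0.02). Nolc1 (1.76), Bop1 (1.77) and Utp20 (1.39), factors of rRNA transcription and processing, rose further. Myc, which drives such genes in growing cells, was under 1 FPKM and lower in Neu+NETS, at 0.813, 0.689, 0.813 and 0.778 and 0.118, 0.0453, 0.114 and 0.165 (-2.88 ± 0.30). These values are RNA of the mouse gene alone, and MYC activity was not measured. The proteins of the cytosolic ribosome were split (4 higher, 12 lower of 26), with a median whose sign turned under 4 of 20 alternative settings, so no direction is given.

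Mitochondrial ribosomal proteins were higher in 24 of 26 cases (median 0.45), led by Mrpl12 (1.20). Of nuclear-encoded respiratory subunits 11 were called higher and 8 lower of 32, against 29.4% and 33.1% of all genes. Their median (0.03) changed sign under 2 settings, so no direction is given. Cycs, cytochrome c, was apart from the rest, from 22.7 to 59.03 FPKM (1.27). Among the 13 mitochondrially encoded genes, 8 were called higher and 5 lower. The complex I genes mt-Nd1 and mt-Nd2 rose, mt-Nd1 from 1242 to 2228 FPKM (0.74) and mt-Nd2 from 454 to 909 (0.90). The oxidase genes mt-Co2 (-0.40) and mt-Co3 (-0.41) fell, and mt-Co2 shares its reads with a near-identical predicted gene. The mitochondrial share of all counts was 2.67% to 2.88% in Neu and 2.89% to 2.98% in Neu+NETS.

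Iron genes were divided (5 higher and 5 lower of 12, with a median sign that turned under 6 settings), yet Tfrc, the transferrin receptor, had the largest difference on the higher side among the genes of at least 5 FPKM picked by rule. It was at 13.5, 13.8, 13.2 and 13.9 FPKM in Neu and 88.6, 86.9, 88.7 and 83.6 in Neu+NETS (2.57 ± 0.03; edgeR, adjusted p = 1.99e-18), with CTR between at 57.4 ± 2.30. Fth1, the ferritin heavy chain, fell from 2046 to 1200.3 FPKM (-0.87), and Ftl1, the light chain, rose slightly (0.14). Hmox1, which breaks down haem, fell from 372 ± 9.50 to 122 ± 3.10 FPKM (-1.71 ± 0.04). The NRF2 list was split as well (9 higher, 9 lower of 23, with a median near 0 whose sign turned under 14 settings): Txnrd1 (0.86), Srxn1 (1.13) and Gclm (0.80) rose while Hmox1 did not.

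**Figure D5:**
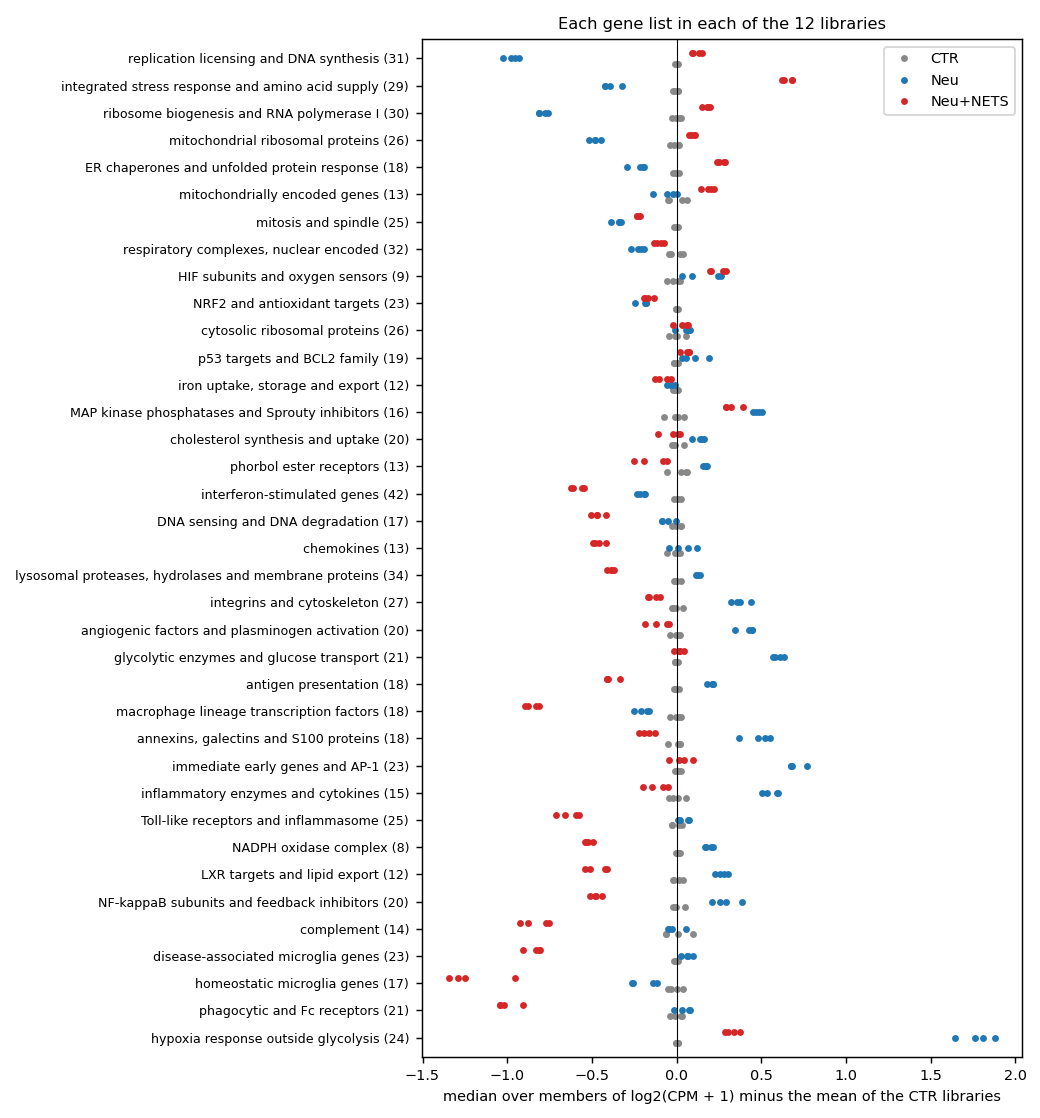
Median over the tested members of each of the 37 lists of log2(CPM + 1) minus the mean of the CTR libraries, 1 point for each of the 12 libraries, with lists ordered by the difference between co-cultures. CPM is counts scaled to library size, and CTR lies near 0 by construction. The Neu libraries lie farthest from CTR in the hypoxia list, at a mean of 1.77 against 0.33 for Neu+NETS, and the Neu+NETS libraries in the homeostatic microglia list, at -1.21 against -0.19 for Neu.

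Set beside BV2 cells alone, the lists fell into different arrangements, given here as the medians of each co-culture minus CTR from the same fit, which shares its libraries across contrasts. For hypoxia genes Neu was at 2.00 and Neu+NETS at 0.28, and for glycolysis 0.61 and -0.05. For replication they were -0.92 and 0.06, and for ribosome synthesis -0.77 and 0.14. In these 4 lists the Neu+NETS libraries were the nearer to CTR. The arrangement was the other way round for phagocytic receptors (0.02 and -1.49), homeostatic genes (-0.19 and -1.82) and lineage factors (-0.15 and -0.94), where Neu was the nearer. For the stress response and amino acid list the groups lay on opposite sides of CTR, at -0.40 and 0.62. Several other lists did so with Neu above CTR, among them inflammatory enzymes and cytokines (0.81 and -1.33) and NF-kappaB genes (0.31 and -0.55). How far the inflammatory list of Neu+NETS lay below CTR depended on the measure. With medians of log2(CPM + 1) minus the CTR mean, that list averaged 0.56 in Neu and only -0.12 in Neu+NETS. NF-kappaB genes averaged 0.29 and -0.48 on that measure. Over all tested genes, 54.1% were called between Neu and CTR and 45.3% between Neu+NETS and CTR.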

How the data were processed

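Polyadenylated RNA of 12 libraries was sequenced, 4 each for BV2 cells alone, with neutrophils, and with PMA-stimulated neutrophils. The submitters' processing notes name the aligner HISAT2 2.0.4, the assembler StringTie 1.3.4d, edgeR and mouse genome GRCm39, with no role or order. The authors deposited 1 table with estimated counts (whole numbers) and FPKM (fragments relative to gene length and library size) for each gene and library. The sources used here do not give annotation, strand setting or filters. Values from 2 to 41 were multiples of 4 in 33.0% of cases against 25% for an even spread, so 1 fragment may be worth about 4 units, though most low values are not such multiples and no source gives the unit. A floor of 12 counts for each library was assumed, 3 fragments on that reading; if each unit is a fragment, the floor would be 3 counts and bounds against it larger.

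Deposited counts of the 8 co-culture and 4 CTR libraries (53512190 to 68316549 per library) were filtered with filterByExpr, scaled by TMM (factors 0.970 to 1.03) and fitted with edgeR 4.0.16's quasi-likelihood test in R 4.3.3, group as the only term. All groups shared 1 estimate of spread. P-values were adjusted over the 16387 tested genes by the Benjamini-Hochberg method and called under 0.05. The standard error was taken as the log2 fold change over the square root of F. The step was tested on simulated data in which few genes changed, equally often each way, with 1 spread for all genes. That setting cannot check scaling or calls where most genes differ, as they do here. FPKM gave levels as mean ± SD (n = 4). Alternatives, with limma 3.58.1 and DESeq2 1.42.0 among them, stand in the closing section. The common biological coefficient of variation was 12.5%, and for high counts it exceeds counting error.

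Named genes were the 12 largest changes each way without overlap at 5 FPKM or more, up to 4 members of each list with the smallest adjusted p, genes listed by hand, the 2 highest of each marker list, and the 5 largest FPKM differences each way at 50 FPKM or more (197 in all). A further 53 list members were named after their values were seen. The members, lists and tests were chosen with earlier results of these data known. List entries that were missing from the table, S100a9 and Ly6g among them, were not analysed here. Genes with near-identical copies (Selenbp1, Gapdh, mt-Co2, the Ifi200 and Hba genes) are uncertain, and 80 symbols stand on several rows. Promoters came from RefSeq, GRCm38.p6, a build other than that of the files, and were matched by symbol.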

Additional observations from a re-analysis of the deposited data

Results flagged for a closer look

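Within each group of 4 libraries, a library was singled out where its FPKM lay far from the other 3, by a gap whose share of the group's whole range was above Dixon's 95% critical value for 4 samples. Of 500 groups looked at (250 named genes in Neu and in Neu+NETS), 44 had such a library. Chance alone gives about 1 in 20 groups. Neu replicate 2 was low for Selenbp2 (4.35) and Hmgcs1 (14.1) FPKM. Neu replicate 2 was high for Slc1a4 (1.98) and Cd33 (34.05) FPKM. Neu replicate 3 was low for Ero1a (249.99), Ccl9 (3.69) and mt-Nd2 (434) FPKM. Neu replicate 4 was high for Selenbp1 (255), Ndrg1 (151), Jun (43.9), Trem2 (33.1), Irf8 (17.4), Ctsa (390.3) and Siglec1 (49.1) FPKM. It was high as well for Ifi203 (12.8), Srebf2 (37.7), Slc11a1 (79.4), Bop1 (25.1), Lgals3 (657), Ncf4 (89.6) and Slc2a1 (274) FPKM, and for Irf7 (85.1), Cyba (277), Junb (173), Nfkbia (71.8) and Pkm (1275) FPKM. Neu replicate 4 was low for Mrps5 (9.42) and Anxa3 (57.4) FPKM. Neu+NETS replicate 1 was low for Cgas (13.9), Sting1 (19.2) and Ctsb (363) FPKM. Neu+NETS replicate 1 was high for Siglecf (0.118) and Rbpms (1.54) FPKM. Neu+NETS replicate 2 was high for Ikbke (5.46) and Ier3 (59.2) FPKM. Neu+NETS replicate 2 was low for Kif11 (24.3) FPKM. Neu+NETS replicate 3 was low for mt-Th (25.4), Atf3 (10.8) and Myd88 (20.9) FPKM. Neu+NETS replicate 3 was high for Trem2 (14.7) FPKM. Neu+NETS replicate 4 was high for Hk1 (25.04), Siglec1 (4.93), Ncl (302) and Anxa2 (74.5) FPKM. 21 of the 44 cases concerned Neu replicate 4, the library that also differed most from the others of its group over all genes.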

How the results depend on the processing

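Counts of calls kept within 1.5 times under 20 alternative settings and under a stricter adjusted p of 0.01 (4258 higher, 4592 lower), apart from those given here. Limma called 3581 genes lower on log2(FPKM + 1) and 3568 on log2(FPKM + 0.1), with 11626 genes tested. Genes called with at least 1 on the log2 scale numbered 473 higher and 575 lower with limma on log2(FPKM + 1), 473 and 579 without a filter, 878 lower with a pseudocount of 0.1, and 498 and 1218 among the 11658 genes with a mean of at least 100 counts. Leaving out each library in turn gave 4636 to 4764 genes called higher and 5133 to 5283 lower, with 728 to 764 and 1994 to 2102 of these past 1 on the log2 scale. Lists with over 50% of members called numbered 6 to 9 (higher) and 22 to 27 (lower) over all settings. Of the 250 named genes 18 changed their call under some setting and 0 reversed (58 calls lost and 19 gained by setting, 4881 unchanged).

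Groups share replicate numbers, so a fit with the replicate block was made: it called 4793 genes higher and 5415 lower. Same-numbered libraries did not deviate together (correlations -0.0546 to 0.0426, none over 0.1), so the numbers were not taken to pair them. Depth limits genes near 0: the floor of 12 counts assumes about 4 count units to a fragment, and fitted folds of Nos2, Cx3cr1, Il1r2 and Selenbp2 depend on the prior count. PMA, traps and neutrophils cannot be told apart here.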

Other observations

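The KEGG pathway names deposited with each gene gave a view that did not depend on the lists above, with 275 pathways of 20 to 300 tested genes. The 3 lowest medians were in complement and coagulation cascades (3 higher and 27 lower of 40 tested genes, median -1.22), in Staphylococcus aureus infection, a set rich in complement and immune receptor genes (1 higher and 24 lower of 31 tested genes, median -1.05), and in hematopoietic cell lineage (3 higher and 35 lower of 45 tested genes, median -1.02), while cell adhesion molecules came 7th from the lowest (5 higher and 55 lower of 72 tested genes, median -0.88). The highest were in DNA replication (32 higher and 1 lower of 35 tested genes, median 0.85), mismatch repair (19 higher and 1 lower of 23 tested genes, median 0.62) and base excision repair (32 higher and 5 lower of 45 tested genes, median 0.61). Genes of the proteasome (34 higher and 9 lower of 44 tested genes, median 0.45), of nucleocytoplasmic transport (92 higher and 4 lower of 102 tested genes, median 0.43) and of aminoacyl-tRNA biosynthesis (30 higher and 4 lower of 43 tested genes, median 0.41), of which the lists held few or no members, were also mostly higher in Neu+NETS. Pathways share genes, and these counts carry no test.

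Mitochondrial tRNA genes were among the 12 with the largest log2 differences on the higher side once genes under 5 FPKM, with overlapping groups or without a proper symbol were set aside. The histidine tRNA gene mt-Th was at 6.37, 4.29, 4.34 and 5.21 FPKM in Neu and 33.2, 34.6, 25.4 and 33.2 in Neu+NETS (2.50 ± 0.24; edgeR, adjusted p = 8.77e-08). The leucine tRNA gene mt-Tl2 (2.42 ± 0.26) and the serine tRNA gene mt-Ts2 (2.30 ± 0.28) moved alike. Such short transcripts lie between messenger RNAs of the same precursor, and reads across their ends can be shared with neighbouring genes. The alpha-tubulin gene Tuba1b rose from 618 ± 38.5 to 1029 ± 47.1 FPKM (0.63 ± 0.03), one of the 5 largest gains in FPKM.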
